A study of Mus musculus with 12 samples.

Results

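The 37 genes described here encode the sarcomere of fast skeletal muscle, the contractile unit of the striated fiber, together with the enzymes that supply it with energy. They were taken by symbol from gene-level read counts of mouse skin, and make up 37 of the 55453 genes in the count file. All 37 were among the 18311 genes with enough counts to be tested. By role, 8 belong to the thick filament, 6 to the thin filament, 3 to the M-band and titin, 10 to the Z-disc, 7 to energy supply, and 3 to protein stability and other functions.

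The series examined whether Thy-1, a cell surface protein of fibroblasts and several other cell types, alters the response of skin to bleomycin, an agent that induces fibrosis on repeated injection. WT and Thy-1–KO mice, both labelled C57/BL6, received s.c. injections of bleomycin (BLM) at 10 mg/kg/day or PBS alone into the back. The labels give 21 days, which in the paper is the day of skin harvest, while its methods give a shorter course of daily injections. The design gave 4 groups of 3 mice with 1 library each: WT PBS (mice 159, 160 and 161), WT BLM (145, 146 and 147), KO PBS (136, 137 and 139) and KO BLM (141, 143 and 144). The methods give female sex and an age of 8 to 12 weeks for the Thy-1–KO mice and describe the controls as littermates, without a separate age for the WT mice, and the part of Thy1 that was removed is not stated.

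In a sarcomere, myosin heads on the thick filament pull on the actin of the thin filament, titin and the M-band hold the thick filament in register, and the Z-disc anchors the thin filaments of neighboring sarcomeres. Fast fibers are classed by their myosin heavy chain and draw on creatine phosphate and glycogen for rapid ATP supply. In mouse back skin, striated muscle forms the panniculus carnosus, a thin sheet beneath the dermis and the fat. In such bulk skin samples, a change in the number of muscle fibers and a change in RNA per fiber cannot be told apart. Nor can either be told apart from how much of the sheet was taken with the skin.

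The libraries held 26473700 to 38890450 counted reads. Thy1 was lower in KO than in WT mice under each treatment but was not absent: it ranged from 104 to 150 CPM (counts scaled to a common library size) in WT PBS, 231 to 416 CPM in WT BLM, 45.6 to 96.9 CPM in KO PBS and 84.7 to 128 CPM in KO BLM mice. KO PBS mouse 136 and KO BLM mouse 141 stood apart from the rest of their groups in genes of the growing hair shaft. The summed level of 21 such genes was 49542 to 71230 CPM in WT PBS, 76489 CPM in KO PBS 136 and 37865 CPM in KO BLM 141, against 104 to 887 CPM in WT BLM, 90.6 and 282 CPM in KO PBS 137 and 139, and 3805 and 6313 CPM in KO BLM 143 and 144. Krt34, a hair keratin, had a count of 0 in WT BLM 145, WT BLM 147 and KO PBS 137. Results that rest on mice 136 and 141 are therefore given with and without them.

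The fast muscle genes together were low in every WT PBS mouse and high in every WT BLM mouse. Their summed level was 9642, 8667 and 8997 CPM in WT PBS mice 159, 160 and 161, and 62698, 53910.5 and 31299 CPM in WT BLM mice 145, 146 and 147. The highest library thus gave 6.05% of its counts to these genes, and the lowest 0.849%. In KO PBS mice the sum was 10314 CPM in mouse 136, 42995 CPM in mouse 137 and 37139 CPM in mouse 139, and in KO BLM mice it was 21174, 18590.4 and 34688 CPM. The KO mice therefore did not split by treatment: mouse 136 lay near the WT PBS mice, mice 137 and 139 lay between the lowest and the middle WT BLM mouse, and the 3 KO BLM mice lay within the range of the KO PBS mice.

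**Figure D1:**
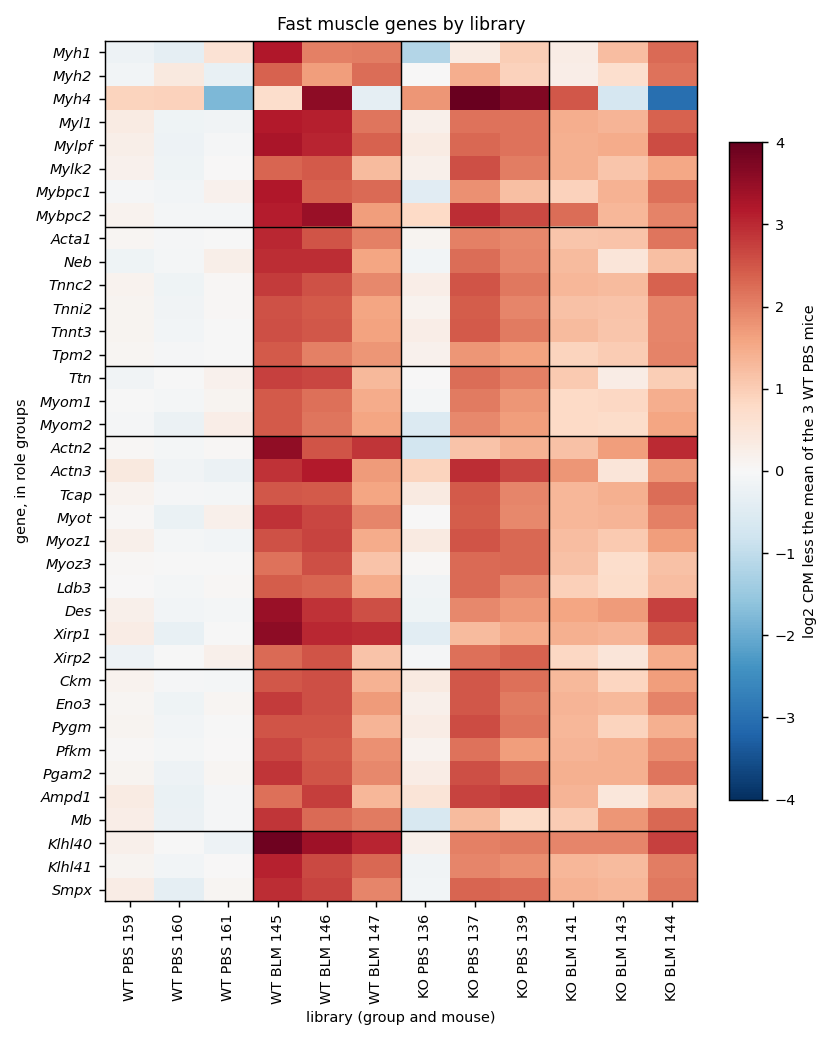
Heat map of the 37 genes (rows, in role groups set apart by lines) in the 12 libraries (columns, in groups set apart by lines); color is log2 CPM less the mean log2 CPM of the 3 WT PBS mice. Nearly every row is red in the WT BLM mice and in KO PBS 137 and 139 and close to white in KO PBS 136, while Myh4 follows a different order across the libraries.

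In WT mice, 36 of the 37 genes were higher after bleomycin in edgeR's quasi-likelihood test at an adjusted p under 0.05, and none was lower. Of all genes tested, 34% were called in either direction in this comparison and 19.8% were called higher. The median log2 fold change over the 37 genes was 2.42, beside 0.02 over all genes tested, with a range of 1.82 to 3.48. The values of each of the 36 genes did not overlap between the groups, which held for 57% of all genes. When the mean log2 CPM of the growing hair genes was added to the model, 0 of the 37 genes passed (14 of all 18311 genes did), with all 37 log2 fold changes still positive and a median of 1.06. Hair genes were high in all 3 WT PBS and low in all 3 WT BLM mice, so hair growth and bleomycin cannot be told apart in this comparison. The count was 27 without WT PBS 160, where 13.9% of all genes were called, and 30 without WT PBS 159, where 14.0% were. It was 32 to 36 when any other library was left out, where 17.6% to 45.7% of all genes were called.

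The thick filament genes carried the motor itself. Myh1, Myh2 and Myh4 encode the heavy chains of type IIx, IIa and IIb fibers and lie side by side on chromosome 11. Myh1 measured 869.8, 784 and 1498 CPM in the WT PBS mice, 9222, 4061 and 4204 CPM in the WT BLM mice, 452, 1257 and 1986 CPM in the KO PBS mice and 1233, 2390.5 and 4825 CPM in the KO BLM mice. Its WT BLM values all lay above the WT PBS values, with a log2 fold change of 2.47 ± 0.65 (SE, n = 3 per group; edgeR adjusted p = 0.0190). Myh2 stood at 133, 189 and 118 CPM in WT PBS, 734, 462 and 675 CPM in WT BLM, 144, 392 and 272 CPM in KO PBS and 171, 230.1 and 641 CPM in KO BLM mice, and rose in WT mice by 2.09 ± 0.51 on the log2 scale (edgeR adjusted p = 0.0153). Myh4 measured 924, 935 and 142 CPM in the WT PBS mice, 815, 5882 and 384 CPM in the WT BLM mice, 1703, 7653 and 6427 CPM in the KO PBS mice and 2772, 312 and 61.9 CPM in the KO BLM mice. It was the only one of the 37 genes whose WT groups overlapped, with 142 CPM in WT PBS 161 and 384 CPM in WT BLM 147 but 5882 CPM in WT BLM 146 (log2 fold change 1.82 ± 1.36, edgeR adjusted p = 0.308). Without WT BLM 146 its log2 fold change was -0.15.

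Of these 3 neighbors, Myh1 and Myh2 were called higher in WT mice after bleomycin, whereas Myh4 was not. Acta1 and Klhl40, described with the thin filament and stability genes, were also called higher. The promoters of Myh2, Myh1, Myh4, Acta1 and Klhl40 are printed below. Each is the RefSeq window of 300 bases on GRCm38.p6, 250 before the annotated start and 50 after it, on the strand of the gene. Capitals mark the E-box CAGCTG, the TATA box motif TATAAA and the MCAT element CATTCC on either strand, and matches to the MEF2 and CArG box motifs.
Myh2 (chr11:67170777-67171076, plus strand): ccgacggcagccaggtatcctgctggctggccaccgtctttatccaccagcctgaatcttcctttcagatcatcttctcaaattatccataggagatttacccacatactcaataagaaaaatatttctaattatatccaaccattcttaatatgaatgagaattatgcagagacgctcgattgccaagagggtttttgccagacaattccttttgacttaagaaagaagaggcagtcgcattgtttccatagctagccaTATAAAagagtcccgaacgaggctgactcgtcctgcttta
Myh1 (chr11:67199852-67200151, plus strand): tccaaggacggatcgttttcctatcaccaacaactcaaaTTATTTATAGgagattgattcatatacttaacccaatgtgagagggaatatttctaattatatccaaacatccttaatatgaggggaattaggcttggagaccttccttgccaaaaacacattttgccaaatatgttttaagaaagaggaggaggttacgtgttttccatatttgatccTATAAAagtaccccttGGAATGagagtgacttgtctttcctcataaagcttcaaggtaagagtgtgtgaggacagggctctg
Myh4 (chr11:67237562-67237861, plus strand): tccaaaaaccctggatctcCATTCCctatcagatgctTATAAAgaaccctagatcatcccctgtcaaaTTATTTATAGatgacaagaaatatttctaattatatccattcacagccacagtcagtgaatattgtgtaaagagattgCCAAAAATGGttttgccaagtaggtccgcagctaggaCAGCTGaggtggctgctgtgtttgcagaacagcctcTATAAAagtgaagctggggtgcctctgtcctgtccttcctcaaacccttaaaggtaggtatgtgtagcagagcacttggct
Acta1 (chr8:123894726-123895025, minus strand): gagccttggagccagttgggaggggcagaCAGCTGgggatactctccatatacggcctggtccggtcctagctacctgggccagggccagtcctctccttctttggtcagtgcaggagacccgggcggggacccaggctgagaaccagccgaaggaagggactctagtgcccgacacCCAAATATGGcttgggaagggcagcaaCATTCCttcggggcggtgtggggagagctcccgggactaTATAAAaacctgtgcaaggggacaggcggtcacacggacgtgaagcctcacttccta
Klhl40 (chr9:121777357-121777656, plus strand): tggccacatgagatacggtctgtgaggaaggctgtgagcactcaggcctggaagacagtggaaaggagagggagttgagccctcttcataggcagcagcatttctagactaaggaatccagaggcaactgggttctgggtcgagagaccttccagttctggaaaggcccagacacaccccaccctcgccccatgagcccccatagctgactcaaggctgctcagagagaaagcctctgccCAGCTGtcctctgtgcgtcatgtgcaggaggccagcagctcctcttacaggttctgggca

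A promoter entry was found for 25 of the 37 genes. The MEF2 motif, bound by a family of muscle transcription factors, matched in 6 of the 25 promoters (24%) and in 1.89% of 27025 promoters, one per gene symbol, and the CArG box, bound by serum response factor, in 4 (16%) and 1.57%. CAGCTG, an E-box bound by myogenic factors, was present in 13 (52%) and 16.1%, while the general E-box CANNTG, which includes it, was present in 21 (84%) and 72.1%. CATTCC was found in 8 (32%) and 14.6%, and TATAAA in 5 (20%) and 14.2%. Myh1 and Myh4 each held a MEF2 match, which overlaps a reverse TATAAA, and Myh4 also held a CArG box and CAGCTG, none of which was found in the Myh2 window. TATAAA lay 32 bases before the start of Myh1 and 31 before that of Myh4, and began 10 bases after the annotated start of Myh2. These matches describe letters in a window and do not show binding.

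The light chains and other thick filament genes were also higher in WT mice after bleomycin. Mylpf, the regulatory light chain, measured 298, 219 and 247 CPM in the WT PBS mice, 2436, 2078 and 1284 CPM in the WT BLM mice, 318, 1255 and 1148 CPM in the KO PBS mice and 677, 703 and 1543 CPM in the KO BLM mice. Myl1, the essential light chain, stood at 274, 195 and 199.6 CPM in WT PBS, 1966, 1881 and 979.5 CPM in WT BLM, 256, 997 and 986 CPM in KO PBS and 601, 566 and 1127 CPM in KO BLM mice. Their log2 fold changes in WT mice were 2.92 ± 0.53 (edgeR adjusted p = 0.00607) and 2.85 ± 0.52 (edgeR adjusted p = 0.00626). Mybpc2, the fast isoform of myosin-binding protein C, measured 141, 121 and 122 CPM in the WT PBS mice, 1138, 1407 and 405 CPM in the WT BLM mice, 223, 979.7 and 803 CPM in the KO PBS mice and 601, 319.6 and 507 CPM in the KO BLM mice. Mybpc1, the isoform named for slow fibers, stood at 159, 155 and 185 CPM in WT PBS, 1541, 873 and 793 CPM in WT BLM, 122, 589.6 and 383 CPM in KO PBS and 317, 431 and 771 CPM in KO BLM mice. Both rose in WT mice, by 2.94 ± 0.57 (edgeR adjusted p = 0.00756) and 2.68 ± 0.54 (edgeR adjusted p = 0.00817) on the log2 scale. Mylk2, the skeletal muscle kinase of the regulatory light chain, was at 39.3 to 50.4 CPM in WT PBS and 106 to 245 CPM in WT BLM mice.

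The thin filament genes hold the most abundant transcript of the set. Acta1, skeletal muscle actin, measured 1738, 1567 and 1602 CPM in the WT PBS mice, 13202, 9370.1 and 6598 CPM in the WT BLM mice, 1779, 6548 and 6174 CPM in the KO PBS mice and 3557, 3582 and 7189.7 CPM in the KO BLM mice. It rose in WT mice by 2.57 ± 0.51 on the log2 scale (edgeR adjusted p = 0.00797), a 5.95-fold difference. Per kilobase of exon it had the highest mean level of the 37 genes, at 1065 CPM per kb in WT PBS and 6330.4 CPM per kb in WT BLM mice. Tpm2, a tropomyosin that covers the myosin sites on actin, stood at 635, 582 and 589 CPM in WT PBS, 3325, 2443 and 2038 CPM in WT BLM, 671, 2028 and 1822 CPM in KO PBS and 1115, 1224 and 2383 CPM in KO BLM mice, and rose in WT mice by 2.11 ± 0.43 (edgeR adjusted p = 0.00859). The fast troponins Tnnc2, Tnni2 and Tnnt3, which make the filament respond to calcium, rose by 2.46, 2.26 and 2.28, and Neb, which encodes the long filament protein nebulin, by 2.62 on the log2 scale.

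Of the genes that center the thick filament, Ttn, the giant spring titin, measured 409.5, 449.8 and 509 CPM in the WT PBS mice, 3011, 2903 and 1112 CPM in the WT BLM mice, 459, 2148 and 1849 CPM in the KO PBS mice and 944, 561 and 893 CPM in the KO BLM mice. It rose in WT mice by 2.36 ± 0.55 on the log2 scale (edgeR adjusted p = 0.0128), and its KO BLM values lay below all WT BLM values. Per kilobase it was among the lowest of the set, at 3.90 CPM per kb in WT PBS and 20.05 CPM per kb in WT BLM mice. Myom1 and Myom2, the myomesins that cross-link thick filaments at the M-band, rose by 2.10 and 2.09 on the log2 scale in WT mice.

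The Z-disc held 3 of the 4 genes with the largest WT response. Xirp1, a Xin repeat protein that binds actin, measured 12.1, 7.99 and 9.71 CPM in the WT PBS mice, 117, 79.1 and 75.1 CPM in the WT BLM mice, 7.35, 23.4 and 27.5 CPM in the KO PBS mice and 26.5, 25.0 and 53.3 CPM in the KO BLM mice. It rose in WT mice by 3.19 ± 0.48 on the log2 scale (edgeR adjusted p = 0.00431), a 9.10-fold difference. Des, the muscle intermediate filament desmin, stood at 314, 251 and 260.4 CPM in WT PBS, 3018, 2022 and 1630.3 CPM in WT BLM, 243, 1046 and 909 CPM in KO PBS and 824, 889 and 1820.3 CPM in KO BLM mice. Actn2, an actinin that cross-links thin filaments, measured 107, 96.8 and 106 CPM in the WT PBS mice, 1212, 589 and 749 CPM in the WT BLM mice, 62.0, 229.6 and 269 CPM in the KO PBS mice and 234, 330.0 and 811 CPM in the KO BLM mice. Des rose in WT mice by 3.01 ± 0.53 (edgeR adjusted p = 0.00568) and Actn2 by 3.04 ± 0.60 (edgeR adjusted p = 0.00764) on the log2 scale. Both stood higher in KO BLM 144 than in any KO PBS mouse, with 1820 CPM of Des and 811 CPM of Actn2. Myot, which encodes myotilin, stood at 34.0, 27.4 and 38.2 CPM in WT PBS, 245, 209 and 128 CPM in WT BLM, 33.5, 178 and 124 CPM in KO PBS and 83.4, 85.1 and 132 CPM in KO BLM mice, and rose in WT mice by 2.54 ± 0.51 (edgeR adjusted p = 0.00793). The other Z-disc genes rose in WT mice by 2.08 to 2.69 on the log2 scale: Actn3, the actinin of fast fibers, by 2.69, Myoz1 and Myoz3, which bind calcineurin, by 2.32 and 2.09, Tcap, which caps titin, by 2.23, Ldb3, a PDZ and LIM domain protein, by 2.14, and Xirp2, a second Xin protein, by 2.08.

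The energy genes moved close to one another, with WT log2 fold changes of 2.19 to 2.48. Ckm, muscle creatine kinase, had the highest level per kilobase of these 7 and measured 616, 534 and 522 CPM in the WT PBS mice, 3121, 3338 and 1463 CPM in the WT BLM mice, 707, 3092 and 2582 CPM in the KO PBS mice and 1377, 1010.2 and 1764 CPM in the KO BLM mice. It rose in WT mice by 2.24 ± 0.51 on the log2 scale (edgeR adjusted p = 0.0118). Pfkm, the muscle phosphofructokinase, stood at 169.5, 155 and 167 CPM in WT PBS, 1036, 886 and 581 CPM in WT BLM, 179, 738 and 521 CPM in KO PBS and 419, 438 and 592 CPM in KO BLM mice. Pgam2, the muscle phosphoglycerate mutase, measured 53.0, 43.5 and 52.9 CPM in the WT PBS mice, 359, 286 and 187 CPM in the WT BLM mice, 60.6, 295 and 235 CPM in the KO PBS mice and 134, 133 and 219 CPM in the KO BLM mice. These 2 glycolytic enzymes rose by 2.35 ± 0.43 (edgeR adjusted p = 0.00638) and 2.48 ± 0.49 (edgeR adjusted p = 0.00800) in WT mice. Mb, the oxygen-storing myoglobin, stood at 159, 112 and 129 CPM in WT PBS, 958, 637 and 561 CPM in WT BLM, 85.3, 314 and 222 CPM in KO PBS and 265, 450.4 and 649 CPM in KO BLM mice, and rose in WT mice by 2.43 ± 0.47 (edgeR adjusted p = 0.00720). Eno3, muscle enolase, Pygm, which breaks down glycogen, and Ampd1, the muscle AMP deaminase, rose by 2.42, 2.22 and 2.19 on the log2 scale.

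Klhl40, which protects nebulin and leiomodin from degradation, had the largest WT response of the set. It measured 7.41, 6.35 and 5.53 CPM in the WT PBS mice, 95.1, 67.1 and 53.3 CPM in the WT BLM mice, 7.35, 25.8 and 27.0 CPM in the KO PBS mice and 24.5, 24.7 and 42.5 CPM in the KO BLM mice. Its WT log2 fold change was 3.48 ± 0.47 (95% CI, 2.44 to 4.52; edgeR adjusted p = 0.00329), which is 11.2-fold, at the lowest counts of the set (193 to 2429 per library). Klhl41, a related protein of the sarcomere, stood at 53.3, 45.6 and 49.4 CPM in WT PBS, 414, 308 and 241 CPM in WT BLM, 44.9, 189 and 179.5 CPM in KO PBS and 124, 119 and 206 CPM in KO BLM mice, and rose by 2.70 ± 0.47 (edgeR adjusted p = 0.00561). Smpx, a small muscle protein encoded on the X chromosome, rose by 2.56 on the log2 scale.

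In Thy-1–KO mice, none of the 37 genes passed edgeR's test for a change after bleomycin (0 called, 3 at an unadjusted p under 0.05), beside 0.306% of all genes. DESeq2 also called 0 of the 37, where it called 5.95% of all genes. The edgeR log2 fold changes were positive for 13 genes and negative for 24, with a median of -0.27 and a lowest edgeR adjusted p of 0.204. The groups overlapped for all 37 genes, while 19.3% of all genes did not overlap. The 3 genes at an unadjusted p under 0.05 were Actn2 (1.29 ± 0.56), Mb (1.13 ± 0.45) and Ampd1 (-1.30 ± 0.53), the first 2 higher and the third lower after bleomycin. For Acta1 the log2 fold change was -0.02 with a 95% CI of -1.09 to 1.05, for Ttn -0.89 (-2.06 to 0.27), for Klhl41 0.12 (-0.87 to 1.10) and for Myh4 -2.33 (-5.39 to 0.74). Each of these 4 intervals includes 0.

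The KO comparison depended on single mice. Without KO PBS 137, 23 of the 37 estimates were positive and the median was 0.16, with 0 genes called. Without mouse 136, 6 genes were called lower after bleomycin (Ampd1, Ldb3, Myoz3, Pygm, Ttn and Xirp2, log2 fold changes from -1.11 to -1.74), where 14.0% of all genes were called. Without both 136 and 141, where 22.3% of all genes were called, Mb was called higher at 1.03 and 6 genes lower, among them Myh4 at -5.24. With the hair genes in the model the direction turned: 6 genes were called higher (Actn2, Des, Klhl40, Mb, Mybpc1 and Xirp1, from 1.26 to 2.10), 30 of 37 were positive, the median was 0.57, and 9.40% of all genes were called. Whether hair growth had a part in the levels of these genes was not tested.

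**Figure D2:**
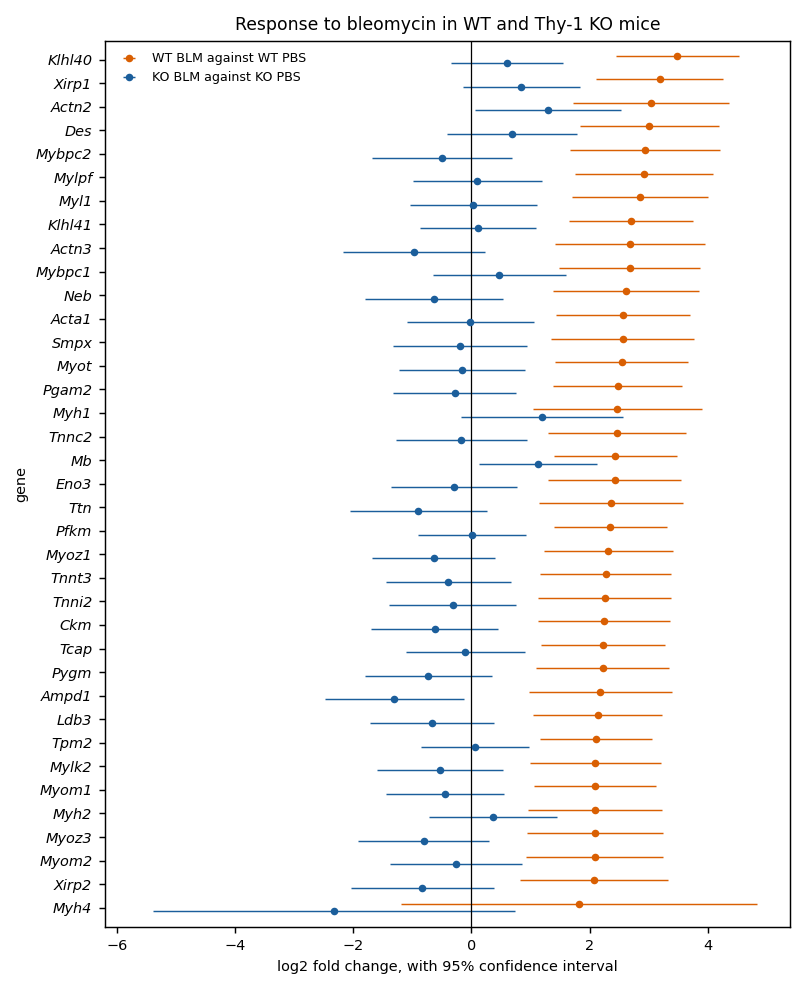
Log2 fold change of each of the 37 genes (rows) on bleomycin in WT mice (orange) and in Thy-1–KO mice (blue); points are edgeR estimates from 3 mice per group and bars their 95% confidence intervals. In WT mice every point is above 1.8 and 36 of 37 intervals lie above 0, whereas the KO points spread around 0 from -2.33 for Myh4 to 1.29 for Actn2.

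The difference between the 2 responses was tested directly. The KO response was below the WT response for all 37 genes, by a median of -2.70 on the log2 scale, and for none did the test pass (0 called; lowest edgeR adjusted p = 0.0702; 34 at an unadjusted p under 0.05), as for 0% of all genes. The difference was -3.49 ± 0.76 (SE) for Ampd1, -3.25 ± 0.77 for Neb, -2.59 ± 0.69 for Acta1 and -1.30 ± 0.63 for Mb. DESeq2 called 32 of the 37, where it called 17.8% of all genes, and edgeR called 35 without KO PBS 136, where it called 39.9% of all genes. With the hair genes in the model it called 0, the median was -0.54, and 7 of the 37 differences were positive.

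Without bleomycin, the estimated levels were higher in KO than in WT mice, without passing the test. All 37 log2 fold changes of KO PBS against WT PBS were positive, with a median of 1.75 and a range of 0.23 (Myh1) to 2.98 (Myh4), but edgeR called none (0 called; 30 at an unadjusted p under 0.05; lowest adjusted p = 0.194), beside 0.0655% of all genes. DESeq2 called 28 of the 37, where it called 3.69% of all genes. For 19 of the 37 genes each KO PBS mouse lay above each WT PBS mouse, compared with 18.9% of all genes that did not overlap. For the other 18 genes mouse 136 did not exceed the highest WT PBS mouse, nor did mouse 137 for Myh1. Without mouse 136, edgeR called 33 genes higher, with a median of 2.18, where 36.7% of all genes were called. The 2 mice left in the group, 137 and 139, had 90.6 and 282 CPM of hair genes, against at least 49542 CPM in the WT PBS mice, and with hair genes in the model the median was 0.61 and 30 of the 37 estimates were positive.

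After bleomycin, the estimated levels were lower in KO than in WT mice, again without passing the test. All 37 log2 fold changes of KO BLM against WT BLM were negative, from -0.51 (Tcap) to -1.60 (Neb) with a median of -0.99. For these, edgeR called none (0 called, 9 at an unadjusted p under 0.05, lowest edgeR adjusted p = 0.245), beside 0.0928% of all genes. DESeq2 also called 0 of the 37, where it called 2.99% of all genes. The values did not overlap for 9 of the 37 genes, among them Ttn, Neb, Xirp1 and Klhl40, a share close to that of all genes, 27.5%. Without KO PBS 136, which is in neither group but adds to the estimate of spread, edgeR called 7 genes lower (Klhl40, Klhl41, Ldb3, Myom1, Neb, Ttn and Xirp1), where 6.89% of all genes were called. Without both 136 and 141 it called 0, where 4.36% of all genes were called. With the hair genes in the model 17 of the 37 estimates were positive and the median was -0.12. All of these comparisons reuse the same 4 groups, so each shares libraries with others.

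To describe each gene apart from the level that the set shared in a library, its log2 CPM was set against the median of the 37 genes there. Over the 12 libraries the SD of this relative level had a median of 0.28 across the genes, and it was under 0.3 for 19 genes. For log2 CPM itself the median SD was 1.10, but a lower SD is partly built in when the genes' own median is subtracted. Acta1 was the steadiest (SD 0.12), and Myh4 (SD 2.18) and Myh1 (SD 0.75) varied most. The median level itself ran from 0.904 to 7.62 times the mean of the WT PBS mice.

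Within the set, the place of 5 genes differed between bleomycin and PBS mice in both genotypes. For Des the relative level was 0.98, 0.97 and 1.08 in WT PBS, 1.54, 1.21 and 1.7 in WT BLM, 0.76, 0.81 and 0.80 in KO PBS and 1.38, 1.51 and 1.83 in KO BLM mice. For Xirp1 it was -3.70, -4.00 and -3.65 in WT PBS, -3.14, -3.46 and -2.74 in WT BLM, -4.28, -4.66 and -4.24 in KO PBS and -3.58, -3.64 and -3.26 in KO BLM mice. For Klhl40 it was -4.41, -4.33 and -4.46 in WT PBS, -3.44, -3.70 and -3.24 in WT BLM, -4.28, -4.53 and -4.27 in KO PBS and -3.69, -3.66 and -3.59 in KO BLM mice. In these 3 genes all 6 bleomycin mice lay above all 6 PBS mice, with mean differences of 0.63, 0.79 and 0.83 on the log2 scale. Ldb3 and Myom1 lay below in all 6 bleomycin mice, by 0.43 and 0.37. The other 32 genes overlapped. The 5 genes are 13.5% of the 37, less than the 18.3% of 60 other genes of mature muscle that did not overlap on the same relative scale. Of all genes tested 2.91% did not overlap, but genes outside muscle carry the swing of the subtracted median, so that share is not a like background. KO PBS 136, with abundant hair transcripts, had a relative Des level of 0.76, next to 0.81 and 0.80 in KO PBS 137 and 139 with few. The 5 genes were picked because all 6 bleomycin mice lay apart from all 6 PBS mice. The side on which each mouse stood was thus set by that choice. No test was made of these differences or of a part of hair growth in them.

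The 3 genes already singled out by their KO difference, whose place is no separate evidence, are described on the same scale. Actn2 had a relative level of -1.21, -1.38 and -0.95 in KO PBS and -0.44, 0.08 and 0.67 in KO BLM mice, Mb of -0.75, -0.92 and -1.23 and -0.26, 0.53 and 0.34, and Ampd1 of -2.25, -2.12 and -1.84 and -2.58, -3.46 and -3.50. For each the KO groups did not overlap, whereas the WT groups did. Of the 37 genes, 8 lay above and 12 below in all KO BLM compared with all KO PBS mice, while 7.35% of all genes did not overlap on this scale. The subtracted median was 7.17 log2 CPM in KO PBS 136 but 9.22 and 9.03 in KO PBS 137 and 139. That spread enters the relative level of genes outside muscle and makes their groups overlap more readily, so the 7.35% is not a like background. In WT mice 5 lay above and 9 below, and 89.5% of all genes did not overlap, since the median that is subtracted itself differed between the WT groups.

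**Figure D3:**
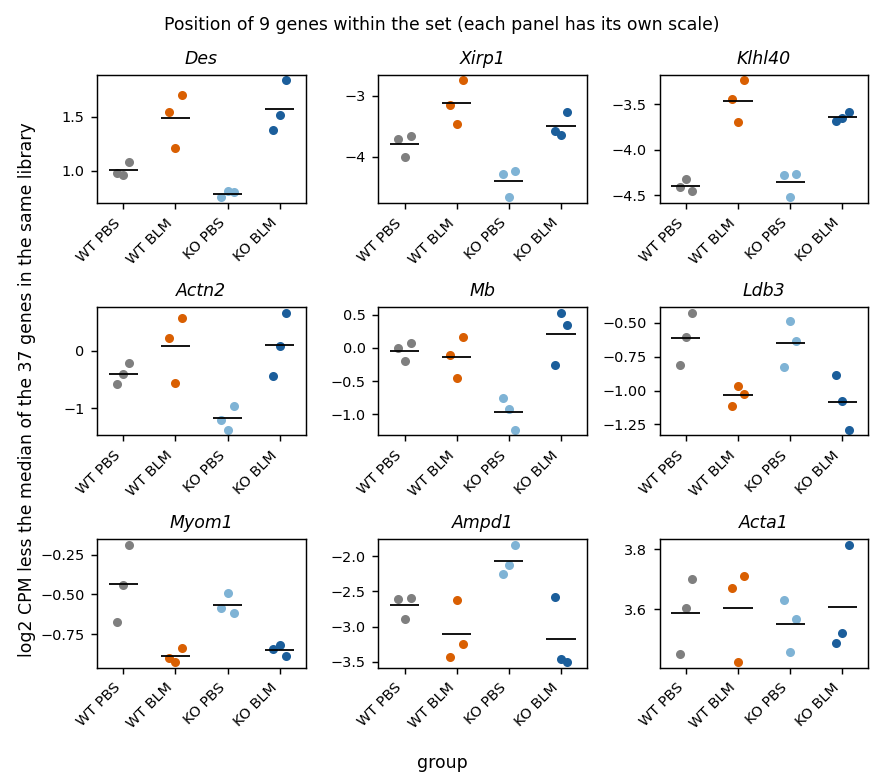
Relative level of 9 genes, the log2 CPM of a gene less the median of the 37 genes in the same library, by group; points are mice, lines are group means, and each panel has its own scale. Des, Xirp1 and Klhl40 lie higher and Ldb3 and Myom1 lower in all bleomycin mice, whereas Acta1 stays within 3.42 to 3.81 in all 12.

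Myosin composition differed between mice of the same group. Counts of Myh1, Myh2 and Myh4 were divided by exon length and each was expressed as a share of the 3. The Myh4 share was 49.7, 50.9 and 8.58% in WT PBS mice 159, 160 and 161, 8.01, 58.1 and 7.78% in WT BLM mice 145, 146 and 147, 75.6, 83.4 and 75.3% in KO PBS mice 136, 137 and 139, and 67.9, 11.3 and 1.20% in KO BLM mice 141, 143 and 144. All 3 KO PBS mice were above all WT mice, with a mean of 78.1% ± 4.60 (SD, n = 3) against 36.4% ± 24.1 in WT PBS, although the summed level of the 37 genes in mouse 136 was close to that in the WT PBS mice. In the other groups at least 1 mouse was above 50% and at least 1 was below 12%. With 3 mice per group these shares were described without a test.

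Myh1 made up most of the remainder. Its share was 44.3, 40.4 and 85.4% in WT PBS, 85.9, 38 and 80.7% in WT BLM, 19, 13 and 22% in KO PBS and 28.6, 81.7 and 88.4% in KO BLM mice. Per kilobase, Myh4 was 6.43-fold above Myh1 in KO PBS 137 and 73.8-fold below it in KO BLM 144, the 2 ends of the range. Myh2 stayed between 2.68% and 11.5% in all 12 mice. KO PBS 136 and 137 had Myh4 shares of 75.6% and 83.4% with hair gene levels of 76489 and 90.6 CPM. KO BLM 141 had a share of 67.9% with 37865 CPM of hair genes. KO BLM 143 and 144 had shares of 11.3% and 1.20% with 3805 and 6313 CPM. In WT PBS mice, with abundant hair transcripts, shares ran from 8.58% to 50.9%, and in WT BLM mice, with few, from 7.78% to 58.1%. A part of hair growth in the Myh4 share was not tested.

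**Figure D4:**
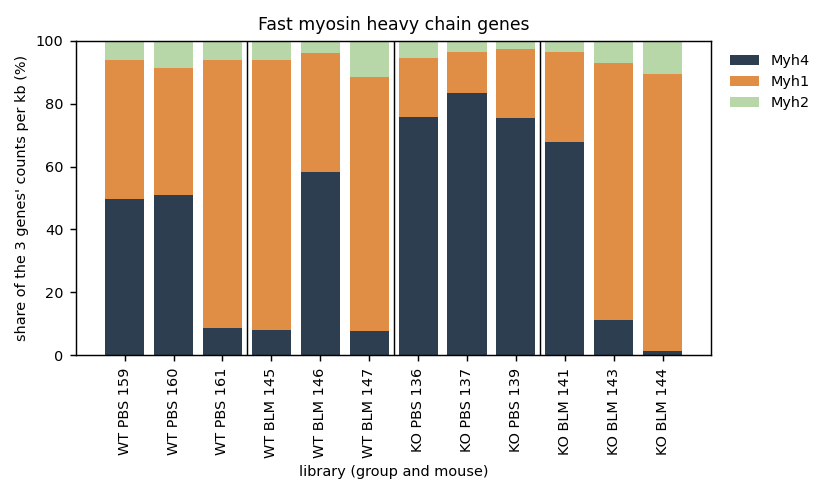
Share of Myh4 (dark), Myh1 (orange) and Myh2 (green) in the summed counts per kb of the 3 genes, in percent, for each of the 12 libraries. Myh4 takes over 75% in the 3 KO PBS mice, while the other groups each hold mice with mostly Myh4 or an even mixture and mice with mostly Myh1.

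Other muscle genes were also higher in WT mice after bleomycin. Of 60 other genes of mature muscle, 54 were called higher in WT BLM than WT PBS mice by edgeR, with a median of 2.34, and all 24 genes of excitation-contraction coupling were, with a median of 2.36. Among all genes tested, 19.8% were called higher in this comparison. Atp2a1, the calcium pump of fast fibers, measured 1037, 905 and 998 CPM in WT PBS, 6272, 5847 and 3036 CPM in WT BLM, 1329, 5919.5 and 4318 CPM in KO PBS and 2410.0, 1896 and 2993 CPM in KO BLM mice. In KO mice 0 of the 60 and 0 of the 24 were called (edgeR, 0 higher and 0 lower), beside 0.306% of all genes, with medians of 0.03 and -0.35. The WT groups did not overlap for Atp2a1, and its KO groups did.

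Genes of new, regenerating or denervated fibers were called in both genotypes. Of 22 such genes, 17 were called higher in WT BLM mice by edgeR (median 4.75) and 5 in KO BLM mice (median 2.37), the 5 being Myh3, Mymk, Chrng, Ankrd1 and Ckb. Among all 18311 genes tested, 19.8% were called higher in WT BLM mice and 46 genes in KO BLM mice. Myh3, the embryonic myosin heavy chain, measured 7.37, 1.28 and 0.382 CPM in WT PBS, 667, 179 and 440.0 CPM in WT BLM, 1.10, 1.71 and 0.536 CPM in KO PBS and 68.6, 81.2 and 277 CPM in KO BLM mice. Mymk, which drives fusion of myoblasts, measured 1.35, 0.263 and 0.255 CPM, 75.6, 36.3 and 63.4 CPM, 0.299, 0.914 and 0.715 CPM and 10.4, 12.5 and 38.7 CPM in the same order. The summed level of the 22 genes was 529 to 606 CPM in WT PBS, 1864 to 4178 CPM in WT BLM, 440 to 630 CPM in KO PBS and 964 to 2152 CPM in KO BLM mice. All 6 bleomycin mice thus lay above all 6 PBS mice in these genes, and the low PBS values include KO PBS 137 and 139, which had 42995 and 37139 CPM of the fast muscle genes. Of the 9 slow fiber genes, 7 were called higher in WT BLM and 1, Tnnc1, in KO BLM mice by edgeR.

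**Figure D5:**
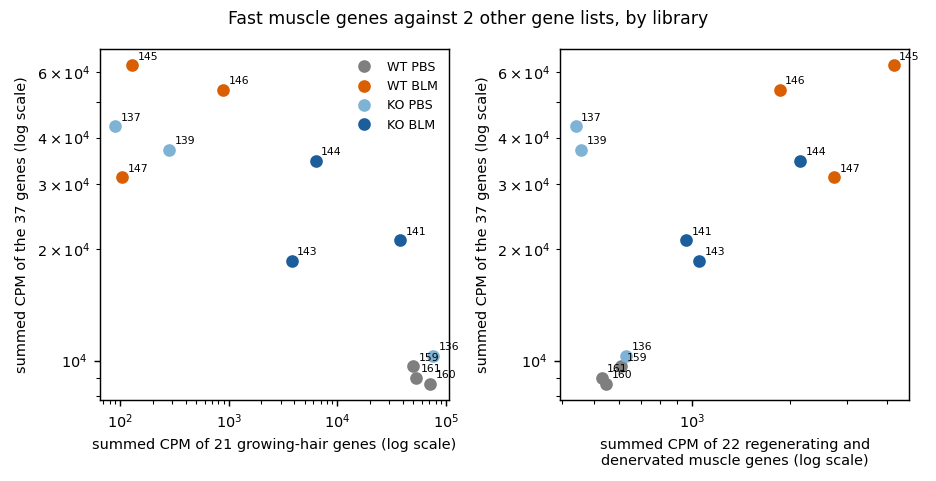
Summed CPM of the 37 genes against the summed CPM of 21 growing-hair genes (left) and of 22 genes of regenerating and denervated muscle (right), 1 point per mouse, both axes on a log scale. Mice with abundant hair transcripts lie low on the left, apart from KO BLM 141 at 21174 CPM, and on the right KO PBS 137 and 139 have high fast muscle levels with low regeneration genes.

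Cardiac and smooth muscle genes and the wider relatives of the 37 genes served as points of reference. The cardiac genes Nppa, Nkx2-5 and Myh6 had at most 2, 1 and 7 counts in any library, and 2 of the 4 cardiac genes that could be tested were called higher in WT BLM mice by edgeR. Of 12 smooth muscle genes, 2 were called higher and 1 lower in WT mice (median 0.46). General relatives of the 37 genes, such as Actb and Actg1, the cytoplasmic actins, had a median of 0.04 in WT mice with 4 higher and 2 lower of 21, and Actb measured 1754, 1689 and 1773 CPM in WT PBS and 1506, 1572 and 2175 CPM in WT BLM mice. Of all genes tested, 19.8% were called higher and 34% in either direction in WT mice. The smooth muscle genes and general relatives called higher did not exceed that first share. Of 21 growing hair genes, 12 were called lower and none higher. Of the genes of other cell types, 9 of 11 macrophage genes were higher, and 6 of 11 fibroblast genes were higher and 1 lower. Only 1 of 12 adipocyte and 1 of 10 epidermal genes were higher, below the share of all genes. The part of these cell types in the levels of the fast muscle genes was not tested.

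Some counts may include reads of related genes. Of all stretches of 50 bases in the annotated transcripts, 25.4% in Myh1, 22.9% in Myh2 and 18.9% in Myh4 also occur in another gene, mostly in one another and in Myh8. For Myl1 (11.7%) and Pfkm (8.83%) the sharing was with a pseudogene and an overlapping gene model, and for the other 32 genes it was under 5%, with 25 at 0. Myh1 overlaps Myhas on the opposite strand, and Xirp1 lies across Cx3cr1, a chemokine receptor gene of macrophages, on the same strand, although no stretch of 50 bases of Xirp1 transcripts occurs in another gene. The library kit kept strand, but how reads were counted is not given in the sources used here, so the values of these genes may be split or merged.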

How the data were processed

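Skin RNA of 12 mice was sequenced on a NextSeq from stranded TruSeq libraries. The authors deposited raw read counts per gene. The submitters' processing notes name MultiQC 1.7 and GRCm38.p6, and the aligner, the counter and its strand setting are not given in the sources used here. RNA kits are named differently in the labels and the methods, and which mouse got which is not given.

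Counts were scaled by TMM, filtered with filterByExpr (minimum count 10, total 15) and fitted with edgeR 4.0.16 in R 4.3.3 as 4 group means (quasi-likelihood test, Benjamini-Hochberg adjustment over 18311 genes, threshold 0.05, 2-sided). Log2 CPM uses a prior count of 2, except in the heat map, which adds none, and edgeR fold changes use the default of edgeR. DESeq2 1.42.0 and other settings served as alternatives. The model was tested on simulated data. P-values cover the spread between mice.

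The 37 genes and all gene lists were chosen with earlier results of these data known, so no list was tested as a set. All 37 genes are named. Values per mouse are given for Myh1, Myh2, Myh4, a leading gene of each role, and the 12 others with the smallest adjusted p in WT mice. Hfe2 and Krt85 were not matched to the count file. Positions and transcripts are from GENCODE for GRCm38.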

Additional observations from a re-analysis of the deposited data

How the results depend on the processing

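Of the calls in WT mice, 36 genes were called with DESeq2 (34.7% of all genes) and with every other normalization or filter tried (15.5% to 36.4% of all genes). The count was 27 to 36 when 1 library was left out (13.9% to 45.7% of all genes), and 0 with growing hair as a covariate (0.0765%). In KO mice, leaving out 1 library gave 0 to 6 called genes, the 6 where 14.0% of all genes were called. Leaving out mice 136 and 141 gave 7 (22.3% of all genes), and the hair covariate gave 6 (9.40%). For KO PBS against WT PBS, leaving out 1 library gave 0 to 33, the 33 where 36.7% of all genes were called. The counts were 36 without both mice (40.9% of all genes) and 28 with DESeq2 (3.69%). For KO BLM against WT BLM, leaving out 1 library gave 0 to 7, the 7 where 6.89% of all genes were called. Without both mice the count was 0 (4.36% of all genes). For the difference between responses, leaving out 1 library gave 0 to 35, the 35 where 39.9% of all genes were called. The counts were 36 without both mice (38.6% of all genes) and 32 with DESeq2 (17.8%). The covariate, the removal of both mice and unscaled library totals were chosen after seeing the data, and the cause of these changes was not tested.

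When 1 library was left out, the log2 fold change ran from -0.15 to 2.33 for Myh4 in WT mice. In KO mice it ran from -0.30 to 0.41 for Klhl41, -0.44 to 0.26 for Acta1, -0.50 to 0.35 for Tcap and -0.42 to 0.74 for Myh2. For KO PBS against WT PBS it ran from -0.30 to 0.63 for Myh1, and for KO BLM against WT BLM from -3.62 to 0.81 for Myh4. Without mice 136 and 141, Klhl41 stood at -0.19 in KO mice.

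Fold changes outside the WT response were followed for 13 of the 37 genes. Among these, the hair covariate turned the direction in KO mice for Acta1 (0.66), Neb (0.053), Tcap (0.57) and Ckm (0.020), and over all 37 genes 30 were positive in place of 13. For KO PBS against WT PBS it turned for Myh1 (-1.13), Myh2 (-0.11), Actn2 (-0.62) and Mb (-0.58) of these, with 30 of all 37 still positive. For KO BLM against WT BLM it turned for Myh1 (0.060), Actn2 (0.30), Tcap (0.29), Des (0.10) and Mb (0.27) of these, with 17 of all 37 positive. The difference turned for Myh1 (1.19), Myh2 (0.082), Actn2 (0.91), Des (0.019) and Mb (0.85) of these, with 7 of all 37 positive. In WT mice hair growth and bleomycin cannot be told apart by this fit.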
